A study of Mus musculus with 6 samples.

Results

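The elastic fibre assembly genes are 10 genes whose protein products build, bundle or cross-link elastic fibres: Eln, Fbn1, Fbln1, Fbln5, Efemp2, Mfap4, Mfap5, Lox, Loxl1 and Emilin1. They were taken by symbol, and all 10 were found among the 55450 genes of the matrix, which held 60871 cell barcodes. Single cells of mouse aortic tissue were profiled on the 10x Genomics droplet platform. The 6 samples carry 2 genotype labels, 3 with Best3FL/FL, a floxed allele of the bestrophin gene Best3, and 3 with Best3SMKO, a deletion of Best3 in smooth muscle. The labels give no age, strain, sex, vessel segment or driver of the deletion, and they do not say whether tissue of several mice was pooled. The barcodes carry 6 suffixes that match no sample name, so the 6 libraries are numbered by suffix, no cell has a genotype, and no value below compares knockout with control. With no labelled groups, no comparison between groups was tested, and the spread over libraries is given in its place.

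An elastic fibre has an amorphous core of cross-linked elastin, laid on a scaffold of fibrillin microfibrils. Soluble tropoelastin, the product of Eln, is collected by fibulins and microfibril-associated proteins, brought to the scaffold, and joined by lysyl oxidases, which convert lysine side chains into reactive aldehydes. In the aorta the fibres form concentric lamellae between layers of smooth muscle, and smooth muscle cells are held to be their main source.

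The libraries held between 7475 and 16269 barcodes and between 51813179 and 96144873 unique molecular identifiers (UMIs, each standing for a captured transcript). After filters on genes, mitochondrial counts and doublets, 50514 cells were left, 5618 to 13765 per library. Any pair of libraries shared between 14 and 51 barcode sequences. The share of smooth muscle-like cells lay between 13.8% in library 4 and 38.5% in library 6. Library 5 had the most called doublets, at 12.1%, and supplied 867 of the 935 cells of an unnamed cluster led by Saa3 and C3.

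Cell classes were named from marker genes after clustering, with the 10 genes left out of the genes used for clustering. Fibroblast-like cells (15667), smooth muscle-like cells (13352) and endothelial cell-like cells (8319) were the largest classes. Their defining markers were present where the names require them. The smooth muscle myosin gene Myh11 reached 6851 CPM (counts of a gene per 1e+06 UMIs) in the smooth muscle-like class, and 195 CPM in the fibroblast-like class. Pdgfra, a fibroblast receptor gene, reached 330.5 CPM in the fibroblast-like class, against 9.06 CPM in the smooth muscle-like class. The endothelial cadherin gene Cdh5 reached 789 CPM in the endothelial cell-like class, against 4.45 CPM in the smooth muscle-like class. A UMI count is not scaled by transcript length, so levels below are compared between cell classes for the same gene and not between genes. Reads of Eln, Fbn1 and the others are also a measure of RNA, not of protein in the vessel wall.

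The 10 genes are all annotated as protein-coding in GENCODE M21 on GRCm38. Fbn1 (ENSMUSG00000027204) lies at chr2:125300594-125507993 on the minus strand, Mfap4 (ENSMUSG00000042436) at chr11:61485431-61488900 and Mfap5 (ENSMUSG00000030116) at chr6:122505845-122529290, both on the plus strand. Eln (ENSMUSG00000029675) lies at chr5:134702593-134747323 on the minus strand and Emilin1 (ENSMUSG00000029163) on the plus strand of the same chromosome at chr5:30913402-30921277. The oxidase gene Loxl1 (ENSMUSG00000032334) lies at chr9:58287738-58313186 on the minus strand. The fibulin genes are Fbln1 (ENSMUSG00000006369, chr15:85205949-85286535, plus), Fbln5 (ENSMUSG00000021186, chr12:101746565-101819055, minus) and Efemp2 (ENSMUSG00000024909, chr19:5473954-5482517, plus; its product is fibulin-4).

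The 3 fibulin genes encode related proteins but differed in their levels over cell classes, and the sequences before their starts are therefore shown ahead of the values. Each line gives the 250 bases before a transcript start, 5′ to 3′ on the gene's strand, from RefSeq on GRCm38.p6. Where RefSeq gives several starts, the window shown is the one that touches no annotated exon and no annotated gene. Capitals mark a GC box, the letters GGGCGG or their reverse complement CCGCCC.
Fbln1, chr15:85205699-85205948, plus strand: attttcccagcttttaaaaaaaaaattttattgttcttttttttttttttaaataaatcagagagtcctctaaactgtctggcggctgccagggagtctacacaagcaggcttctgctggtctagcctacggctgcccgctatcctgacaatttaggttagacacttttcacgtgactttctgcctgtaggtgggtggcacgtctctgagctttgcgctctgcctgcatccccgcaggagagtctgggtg
Fbln5, chr12:101819120-101819369, minus strand: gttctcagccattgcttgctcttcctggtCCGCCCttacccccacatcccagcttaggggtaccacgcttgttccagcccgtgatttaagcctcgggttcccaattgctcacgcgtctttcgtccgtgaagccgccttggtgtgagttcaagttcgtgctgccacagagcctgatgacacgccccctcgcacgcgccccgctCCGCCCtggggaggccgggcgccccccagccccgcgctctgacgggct
Efemp2, chr19:5473696-5473945, plus strand: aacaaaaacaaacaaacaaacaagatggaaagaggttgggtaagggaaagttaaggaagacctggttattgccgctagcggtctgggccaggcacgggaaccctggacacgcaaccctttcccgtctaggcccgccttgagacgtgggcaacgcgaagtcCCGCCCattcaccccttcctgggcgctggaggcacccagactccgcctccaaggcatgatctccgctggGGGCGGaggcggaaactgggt
The Fbln1 window was 46.4% G and C and held 0 GC boxes. The Fbln5 window was 65.2% G and C and held 2, and the Efemp2 window was 59.2% G and C and also held 2. The contrast did not hold in windows before other starts, which overlap exons of the genes and are not shown. The Fbln1 window there was 62.4% G and C with 1 GC box and the Fbln5 window 49.6% with 0, and the 2 for Efemp2 were 75.6% and 78.8% with 5 each. A GC box was found on either strand in 32.7% of the 32851 promoter windows of the same length. A TATA box (TATAAA, in 12.4% of windows), an AP-1 motif (TGANTCA, 6.75%), an MCAT motif (CATTCC, 12.6%) and a CArG box (1.47%) were also searched on both strands, and none of these motifs was matched in the 3 windows. These matches describe letters only.

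Of the named classes, smooth muscle-like cells held most elastin transcripts. Of all Eln UMIs in kept cells, pooled over libraries, 69.8% were in this class, 13.3% in fibroblast-like and 9.34% in endothelial cell-like cells, shares that move with the number of cells of each class caught. In smooth muscle-like cells of libraries 1 to 6, Eln stood at 1468, 1656, 1503, 1722, 1706 and 1617 CPM. In endothelial cell-like cells it stood at 734, 748, 587, 704, 820 and 539 CPM, and in fibroblast-like cells at 459, 460, 405, 348, 390 and 442 CPM. The smooth muscle-like values lay above both other classes in every library, without overlap, and the endothelial cell-like values lay above the fibroblast-like ones. Summed over libraries, Eln was 3.89 times as high in smooth muscle-like as in fibroblast-like cells and 2.30 times as high as in endothelial cell-like cells. An unnamed cluster of 2035 cells, led by Myom1 and Ryr2 and shallow at a median of 1359 UMIs, had Eln at 2565 CPM (libraries 1875 to 3482), above the smooth muscle-like value in every library. It carried smooth muscle markers at 20083.5 CPM and 3.14% of the Eln UMIs. The cluster called pericyte-like (427 cells) is mixed, since the fat cell genes Cfd, Car3 and Cidec are among its 10 leading genes beside the pericyte genes Notch3 and Vtn, and its values are those of the cluster and not of pericytes. Eln stood at 469 CPM in it, with libraries from 225 to 849 CPM, a range that overlaps those of endothelial cell-like and fibroblast-like cells.

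The microfibril genes were distributed the other way. Fbn1 encodes fibrillin-1, the main protein of the microfibril and the gene mutated in Marfan syndrome. In fibroblast-like cells of libraries 1 to 6 it stood at 407, 389, 330, 501, 320 and 396 CPM. Smooth muscle-like cells had 153, 140, 141, 133, 132 and 175 CPM of it, and the range was 40.9 to 75.4 CPM in endothelial cell-like cells. The 3 ranges did not overlap. Mfap5, which encodes the microfibril-associated protein MAGP-2, had 1218, 1074, 1030, 1303, 985 and 861 CPM in the fibroblast-like class. The smooth muscle-like class had 284, 166, 176, 216, 161 and 189 CPM, 5.60 times lower in the sums. The mixed pericyte-like cluster had 334 to 655 CPM of it. Mfap4, which encodes a fibrinogen-domain protein that binds microfibrils and tropoelastin, ranged from 805 to 1257 CPM in fibroblast-like cells, from 328 to 453 CPM in the smooth muscle-like class and from 23.8 to 41.9 CPM in endothelial cell-like cells.

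Fbln1, whose product binds elastin and basement membrane proteins, was the most unevenly distributed gene of the set. Fibroblast-like cells held 89.7% of its UMIs. Its level there was 1209, 1298, 1119, 1068, 1204 and 1045 CPM in libraries 1 to 6, against 31.8, 32.1, 11.9, 22.4, 25.1 and 10.9 CPM in the smooth muscle-like class, a ratio of 53.4 in the sums. Fbln5, whose product tethers tropoelastin to microfibrils and binds integrins, differed less than 2-fold between the 3 large classes. It ranged from 514 to 660.5 CPM in fibroblast-like, from 378 to 542 CPM in endothelial cell-like and from 388 to 462 CPM in smooth muscle-like cells. Fibroblast-like cells were highest of the 3 in 6 of 6 libraries and did not overlap with smooth muscle-like cells, while the endothelial cell-like range overlapped both. Efemp2, whose product brings lysyl oxidase to tropoelastin, was lowest in endothelial cell-like cells in the sums. It lay between 148 and 179 CPM in fibroblast-like cells, between 117 and 142 CPM in the pericyte-like cluster, between 96.8 and 106 CPM in the smooth muscle-like class and between 13.8 and 18.8 CPM in endothelial cell-like cells, with no overlap between these ranges. The 3 fibulin genes thus differed among the 3 large classes. Fbln1 was high in fibroblast-like cells alone, Fbln5 was within 2-fold, and Efemp2 was low in endothelial cell-like cells. Outside these classes, Fbln1 in epithelial-like cells (370 cells) ranged from 40.2 to 1058 CPM over 4 libraries, which overlaps the fibroblast-like range.

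The 2 cross-linking enzymes parted in endothelial cells. Loxl1, the oxidase that acts on elastin with fibulin-5, lay between 332 and 395 CPM in fibroblast-like cells, between 187 and 254 CPM in the smooth muscle-like class and between 11.8 and 20.8 CPM in endothelial cell-like cells. Lox, the founding lysyl oxidase of collagen and elastin, lay between 149 and 216 CPM in fibroblast-like cells. In smooth muscle-like cells it stood at 85.5, 96.3, 102, 109, 89.3 and 109 CPM and in endothelial cell-like cells at 79.3, 104, 82.3, 74.2, 109 and 96.8 CPM, ranges that overlap almost fully. Emilin1 encodes a glycoprotein found at the boundary of elastin and microfibrils. It differed less than 2-fold between the 3 large classes, with 86.1 to 121 CPM in smooth muscle-like, 73.5 to 97.7 CPM in fibroblast-like and 63.9 to 88.9 CPM in endothelial cell-like cells, and smooth muscle-like cells were highest of the 9 named classes of at least 200 cells in 4 of 6 libraries. Of the same 9 classes, fibroblast-like cells were highest in 6 of 6 libraries for the other 8 genes besides Eln and Emilin1. Unnamed clusters could lie higher. The cluster led by Saa3 and C3 had Fbn1 at 508 CPM in library 2 and 531 CPM in library 5, and Mfap5 at 1118 CPM in library 2, above the fibroblast-like values there. A cluster of 186 cells led by Tbx20 and Prg4 had Emilin1 at 226 CPM in the sum.

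**Figure D1:**
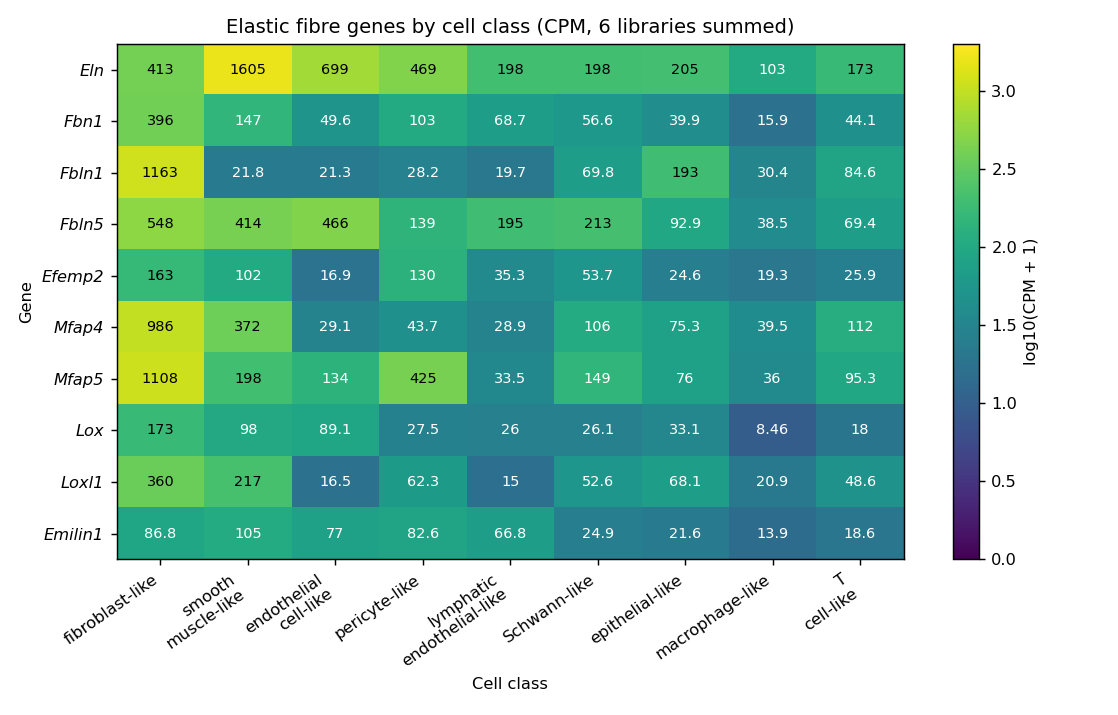
Heat map of the summed level of each gene (rows) in the 9 named cell classes of at least 200 cells (columns). Numbers are CPM over all 6 libraries and colour is log10(CPM + 1). Eln peaks in smooth muscle-like cells at 1605 CPM, while Fbln1, Mfap5 and Mfap4 peak in fibroblast-like cells at 1163, 1108 and 986 CPM.

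**Figure D2:**
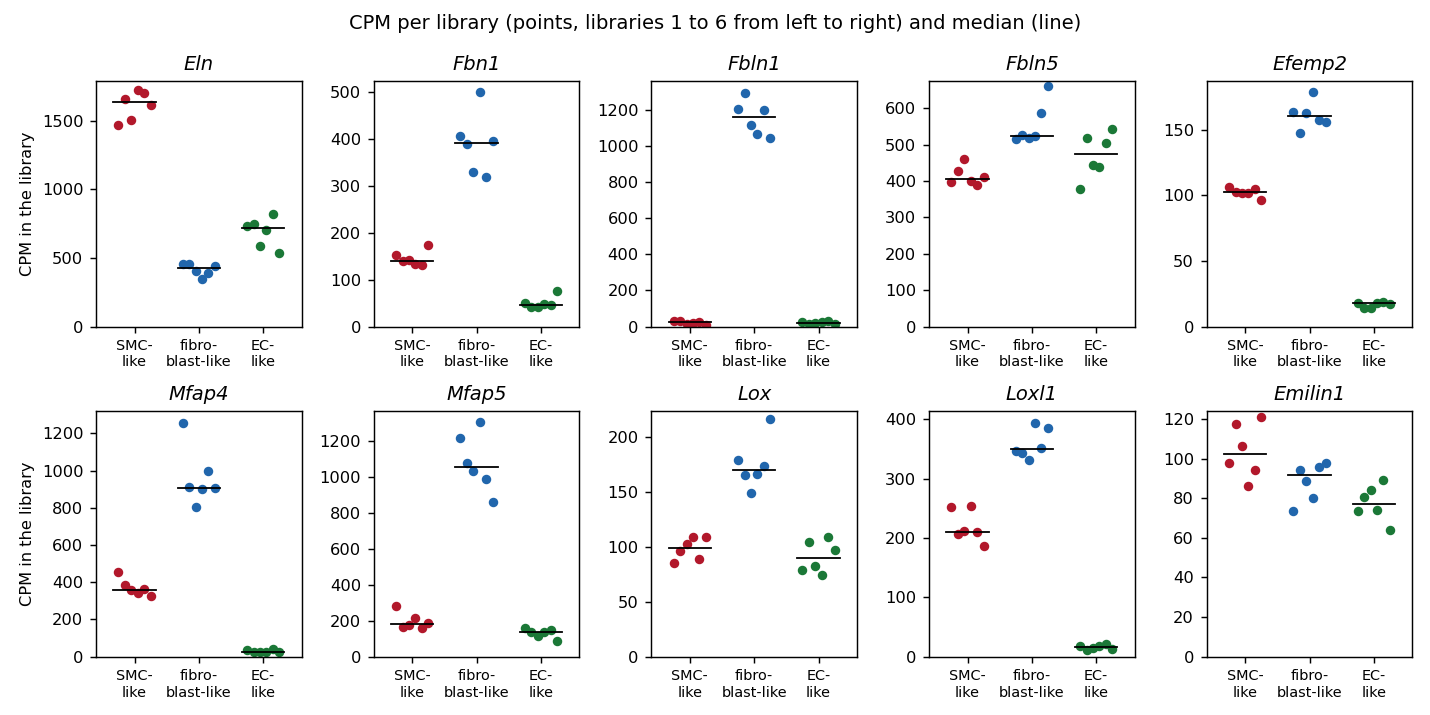
CPM of each gene in each library (points, libraries 1 to 6 from left to right) for smooth muscle-like (SMC-like), fibroblast-like and endothelial cell-like (EC-like) cells, with the median of the 6 libraries as a line. Vertical axes start at 0 and differ between panels. The classes separate fully for Eln and Fbn1, and overlap for Fbln5, Lox and Emilin1.

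A gene was called higher or lower between 2 sets of cells if its summed CPM differed at least 2-fold, reached 10 CPM on the higher side and had the same sign in all libraries that held 20 or more cells on both sides. This is a rule of size and not a test. In smooth muscle-like against fibroblast-like cells, 1 of the 10 genes was higher (Eln), where 10.8% of 9456 genes were, and 4 were lower (Fbln1, Mfap5, Fbn1 and Mfap4), where 15.8% of all genes were. The median log2 ratio of (CPM + 5) was -0.75 for the 10 genes and -0.04 for all genes. Against endothelial cell-like cells, 5 genes were higher in smooth muscle-like cells (Loxl1 by 13.2 times, Mfap4 by 12.8, Efemp2 by 6.06, Fbn1 by 2.97 and Eln by 2.30), with a background of 12.9%, and 0 were lower, with a background of 19.1%. Fibroblast-like cells were higher than endothelial cell-like cells for 6 genes, Fbln1, Mfap4, Loxl1, Efemp2, Mfap5 and Fbn1, by 7.99 to 54.7 times, with a background of 13.8%. They were lower for 0, with a background of 14.9%. Eln, at 413 against 699 CPM, was lower in fibroblast-like cells in all 6 libraries but did not reach 2-fold.

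Droplets also capture free RNA from other cells, so levels were set beside the level of markers of a main source. Smooth muscle markers (7 genes, Acta2 and Myh11 among them) came to 46239 CPM in the smooth muscle-like class and were present in every other class, at 1656 CPM in fibroblast-like, 2129 CPM in macrophage-like and 2224 CPM in endothelial cell-like cells. Per 1000 UMIs of these markers there were 34.7 Eln UMIs in smooth muscle-like cells (libraries 28.9 to 38.7), 48.2 in macrophage-like cells (30.1 to 59.7) and 48.1 in T cell-like cells. The ratio was 314 in endothelial cell-like cells (235 to 465) and 249 in fibroblast-like cells (164 to 488), above the smooth muscle-like ratio in every library. The Eln of macrophage-like cells, 103 CPM, therefore stood near the ratio of smooth muscle-like cells, and that of endothelial cell-like and fibroblast-like cells did not. Fbln1 gave a different result. Per 1000 UMIs of 7 fibroblast markers there were 40.4 Fbln1 UMIs in fibroblast-like cells, 31.0 in smooth muscle-like cells, 32.6 in endothelial cell-like cells, 44.6 in macrophage-like cells and 34.9 in T cell-like cells. By all 7 markers the Fbln1 ratio thus lay close to that of fibroblast-like cells in these 4 classes. It was 94.3 in epithelial-like and 15.3 in pericyte-like cells. The 7 markers include Col1a1, which made up 415 of their 704 CPM in smooth muscle-like cells. It made up 40.0 of 654 CPM in endothelial cell-like and 2521 of 28803 CPM in fibroblast-like cells. The smooth muscle-like ratio thus rests largely on that 1 marker. Without Col1a1 it would lie above the fibroblast-like ratio, so the closeness for this class holds only with Col1a1 counted. Later ratios per 1000 fibroblast marker UMIs in smooth muscle-like cells count Col1a1 too. Efemp2, Mfap4 and Loxl1 in endothelial cell-like cells, at 25.8, 44.5 and 25.2 UMIs per 1000 fibroblast marker UMIs, were at or below their ratios in macrophage-like cells (28.4, 58.1 and 30.6), and above those of fibroblast-like cells (5.65, 34.2 and 12.5). Per 1000 smooth muscle marker UMIs, Efemp2, Mfap4 and Loxl1 came to 7.60, 13.1 and 7.42 in endothelial cell-like cells. The values were 9.08, 18.6 and 9.80 in macrophage-like and 2.21, 8.04 and 4.70 in smooth muscle-like cells. The part of free RNA in any single value was not tested.

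The share of cells with at least 1 UMI was compared after each cell had been thinned to 3000 UMIs, since median depth was 10646.5 UMIs in smooth muscle-like, 6385 in fibroblast-like and 4316 in endothelial cell-like cells. Thinning left out 977, 3408 and 2878 shallower cells of these classes. Eln was found in 90.2% of smooth muscle-like cells (exact 95% interval 89.6 to 90.7), 58.1% of endothelial cell-like cells (56.8 to 59.4) and 45.8% of fibroblast-like cells (44.9 to 46.7). The background in T cell-like cells, which are not expected to make elastin, was 27.5% (23.7 to 31.5), and in macrophage-like cells 20.8%. T cell-like cells carried smooth muscle markers at 3598 CPM, against 2224 CPM in endothelial cell-like and 1656 CPM in fibroblast-like cells. Their Eln ran from 39.8 to 499 CPM over libraries, so their share is not a matched floor for Eln. Before thinning, the Eln shares were 95.9%, 62.3% and 60.1% in the 3 large classes. Mfap5 was found in 85.3% of fibroblast-like cells, 33.4% of smooth muscle-like and 23.8% of endothelial cell-like cells, with 13.4% in T cell-like cells. Fbln1 was found in 84.1% of fibroblast-like cells. Its 6.04% in smooth muscle-like and 5.64% in endothelial cell-like cells were below the 9.73% of T cell-like cells, as were the endothelial shares of Mfap4 (7.33% against 13.4%), Loxl1 (4.28% against 10.3%) and Efemp2 (5.15% against 5.73%). T cell-like cells are not a matched background for these genes. Fibroblast markers stood at 2424 CPM in them, against 704 CPM in smooth muscle-like and 654 CPM in endothelial cell-like cells. A share below theirs therefore cannot decide whether a class expresses the gene.

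Several genes of the set were often found in the same cell. The number expected from the shares of single genes was not computed, so these counts do not show that the genes go together. In thinned fibroblast-like cells the median was 5 of the 10 genes, and 67.3% of cells had 5 or more. The median was 4 in smooth muscle-like cells (36.3% with 5 or more), 2 in endothelial cell-like cells (4.61%) and 1 in macrophage-like cells (0.162%). Only 0.196% of fibroblast-like cells had none of the 10, against 44.0% of macrophage-like cells.

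**Figure D3:**
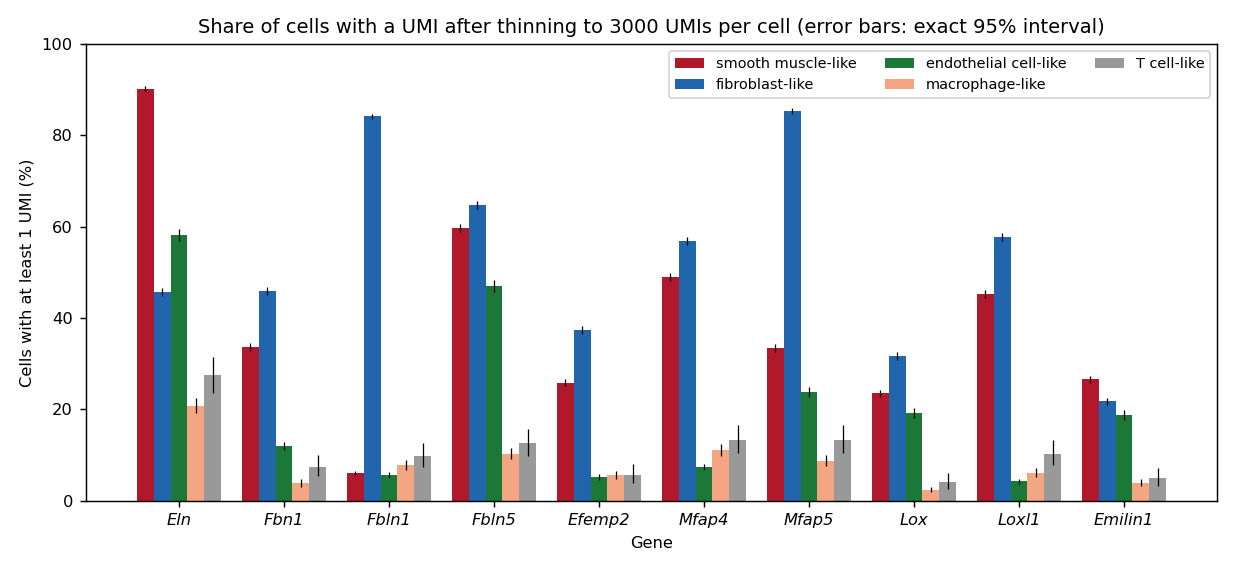
Share of cells with at least 1 UMI of each gene after thinning to 3000 UMIs per cell, for 5 cell classes. Bars start at 0 and error bars are exact 95% binomial intervals, which cover counting error only. Eln is found in 90.2% of smooth muscle-like cells and Fbln1 in 84.1% of fibroblast-like cells, while Fbln1 is below the T cell-like share in the endothelial cell-like and smooth muscle-like classes. T cell-like cells carried more fibroblast marker RNA than either of these classes.

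Within the smooth muscle-like class, cells rich in phospholamban (Pln) carried less of the microfibril genes. This subset held 1611 cells, from 3.53% of the class in library 3 to 32.8% in library 4, with Pln at 253 CPM against 8.21 CPM in cells of neither named subset and 105.5 CPM in the Thbd-Ltbp2-high subset. Mfap4 stood at 69.4, 28.9, 81.9, 35.6, 83.0 and 63.8 CPM in Pln-high cells of libraries 1 to 6, and at 500, 453, 366, 482, 401 and 342 CPM in the other smooth muscle-like cells. The values did not overlap, and the sums differed 7.60-fold. Mfap5 was 3.72 times lower (58.1 against 216 CPM), Fbln5 2.64 times lower (169 against 446 CPM) and Fbn1 2.29 times lower (68.8 against 157 CPM). These 4 of 10 genes were lower where 3.47% of 8817 genes were, and 0 were higher where 5.63% were. Eln (1220 against 1655 CPM), Efemp2, Lox, Loxl1 and Emilin1 differed less than 2-fold. Smooth muscle markers summed to 45872 CPM in Pln-high cells and 47157 CPM in cells of neither named subset, at median depths of 9681 and 10766 UMIs, and fibroblast markers to 688 and 704 CPM.

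The Pln-high subset was made of 2 sub-clusters that differed for Eln. In sub-cluster 4 (1005 cells) Eln stood at 1662 CPM, close to the 1600.4 CPM of the rest of the class. Mfap4, at 42.0 CPM, and Mfap5, at 56.9 CPM, were the 2 genes called lower there, where 2.46% of all genes were. In sub-cluster 6 (606 cells, led by Olfr558, Nrip2 and Adamts4) Eln stood at 457 CPM, with libraries between 321 and 694 CPM, against 1655 CPM in the rest. There 6 of the 10 genes were lower, Eln, Fbn1, Fbln5, Mfap4, Mfap5 and Loxl1, where 6.10% of all genes were. Efemp2 (83.4 CPM) and Lox (79.6 CPM) were within 2-fold of the rest. Fosb, an immediate early gene that tissue dissociation can induce, stood at 1499 CPM in sub-cluster 6, against 125 to 847 CPM in the other smooth muscle-like sub-clusters. Erythroid markers stood at 678 CPM in it. Both sub-clusters also carried Hoxc10, a homeobox gene of the posterior trunk, at 35.4 CPM in sub-cluster 4 and 35.8 CPM in sub-cluster 6. Sub-cluster 3, outside the Pln-high subset, had 75.2 CPM of it, and the remaining sub-clusters 0.260 to 13.9 CPM. The part of Fosb induction, erythroid RNA or position along the aorta in these values was not tested.

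A second subset, named by thrombomodulin (Thbd) and Ltbp2, carried more Fbln5, Mfap5 and Fbln1 in its sum, which rests on 1 of its 2 sub-clusters. It held 487 cells, 52 to 142 per library. Fbln5 stood at 1231, 1466, 1473, 1010, 1290 and 1443 CPM there against 367, 389, 432, 359, 353 and 374 CPM in the other smooth muscle-like cells, 3.44 times higher in the sums. Mfap5 stood at 938, 474, 656, 522, 637 and 802 CPM against 262, 154, 162, 195, 143 and 167 CPM, 3.76 times higher. Fbln1 stood at 90.2 against 19.1 CPM, with libraries between 52.8 and 134 CPM against 7.67 to 30.8 CPM. No pair of ranges overlapped for these 3 genes. They were the genes called higher where 4.78% of 8979 genes were, and 0 of 10 were lower where 1.65% were. Here the Fbln1 ratio was 122 UMIs per 1000 fibroblast marker UMIs (libraries 80.7 to 161), against 26.6 in smooth muscle-like cells of neither subset and 40.4 in fibroblast-like cells. Fibroblast markers themselves summed to 742 CPM, close to the 704 CPM of the remaining cells, while smooth muscle markers were at 26509 CPM against 47157 CPM. Pericyte markers were higher, at 4230.5 against 2652 CPM, and so were chondrocyte markers, at 279 against 49.4 CPM. The part of such cells was not tested.

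That subset was mixed too. Sub-cluster 7 (388 cells, led by Adamtsl1, Frzb and Prrx2) held the high values, with Fbln5 at 1606, Mfap5 at 870 and Fbln1 at 115 CPM, Thbd at 195 CPM, Ltbp2 at 312 CPM, pericyte markers at 5372 CPM and the aggrecan gene Acan at 86.0 CPM. Sub-cluster 10 (99 cells) had Thbd at 25.8 CPM, Ltbp2 at 80.6 CPM, Acan at 465 CPM and Pln at 423 CPM, above the 91.1 CPM of Pln in sub-cluster 4 of the Pln-high subset. It had Fbln5 at 381 CPM and Fbln1 at 12.5 CPM, with Mfap4 at 114 CPM and Mfap5 at 72.8 CPM, against 374 and 199 CPM in the rest of the class. Among the remaining sub-clusters, Mfap5 stood at 261 CPM in sub-cluster 1, led by Hand2, and at 92.0 CPM in sub-cluster 3, led by Hoxc10 and Hoxa10, homeobox genes of the posterior trunk. It was the 1 gene called lower in sub-cluster 3 (background 1.13%), where pericyte markers stood at 8356 CPM, and the part of such cells was not tested. Sub-cluster 5 came from libraries 1 and 2 (603 of 643 cells) and carried heart muscle markers at 911 CPM and fibroblast markers at 1329 CPM. It had Fbln1 at 71.4 CPM against 18.9 CPM in the rest, the 1 gene called higher there (background 1.03%), at 53.7 UMIs per 1000 fibroblast marker UMIs. Sub-cluster 9 (105 cells, 83 of them from library 5, the 1 library compared) was lower for 4 of 10 genes, where 6.26% of all genes were. Eln stood at 723 against 1612 CPM, Fbln5 at 145 against 416, Mfap4 at 120.4 against 374 and Mfap5 at 83.4 against 199 CPM. Heart muscle markers stood at 5440 CPM, erythroid markers at 2446 CPM and Pln at 117 CPM there, and their part was not tested.

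**Figure D4:**
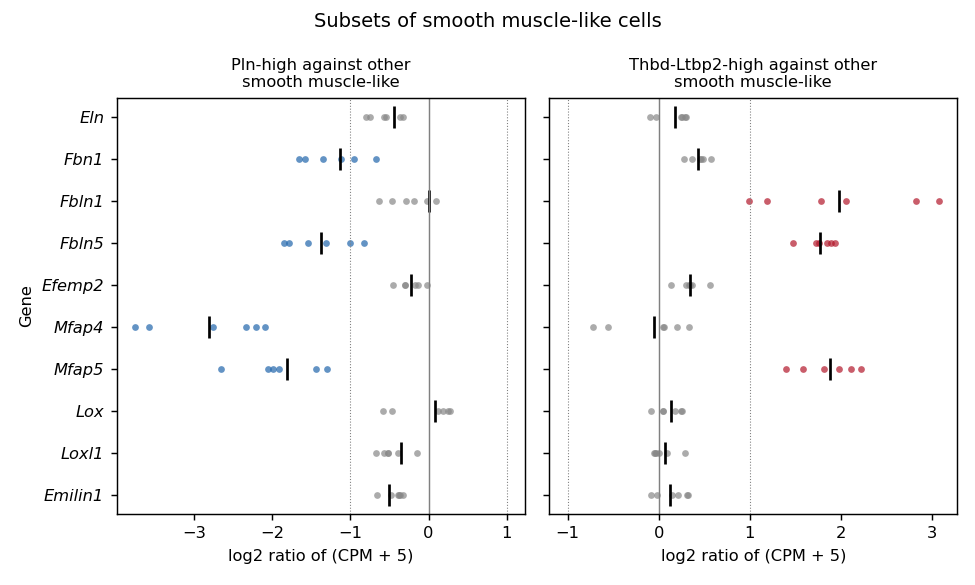
Log2 ratio of (CPM + 5) of each gene between a subset and the other smooth muscle-like cells, in each library (points) and in the sum of libraries (vertical marks). Red genes were called higher, blue lower and grey neither, and dotted lines are 2-fold. Fbn1, Fbln5, Mfap4 and Mfap5 are lower in Pln-high cells, and Fbln1, Fbln5 and Mfap5 higher in Thbd-Ltbp2-high cells.

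Among fibroblast-like cells, the Pi16-Cd248 subset had more Fbn1 and Mfap5 and less of 5 other genes of the set, Mfap4 among them. These 1114 cells, known in many tissues as adventitial fibroblasts with progenitor features, made up 7.11% of the class. Fbn1 stood at 1672, 1576, 1350, 1588, 1431 and 1459 CPM in them against 258, 256, 240, 254, 224 and 295 CPM in the other fibroblast-like cells, 6.17 times higher in the sums. Mfap5 stood at 2676, 2641, 2492, 2870, 2523 and 1638 CPM against 1045, 899, 900, 946, 852 and 787 CPM, 2.86 times higher. Both genes were higher in every library without overlap, where 4.30% of 9155 genes were called higher. Mfap4 lay between 36.1 and 149 CPM against 865 to 1396 CPM, 10.9 times lower in the sums. Lox (40.3 against 190 CPM), Fbln1 (373 against 1263 CPM), Eln (159 against 445 CPM) and Fbln5 (270 against 584 CPM) were lower too, 5 genes in all where 5.69% of genes were. Loxl1 was at 517 against 340 CPM, Efemp2 at 150 against 164 CPM and Emilin1 at 51.4 against 91.3 CPM. The 2 oxidases therefore lay on opposite sides of the other fibroblast-like cells, with Loxl1 above them and Lox below them in all 6 libraries. Fibroblast markers summed to 24058 CPM and smooth muscle markers to 1148 CPM in this subset, at the highest median depth of the fibroblast-like subsets, 10053.5 UMIs.

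The largest fibroblast-like subset, named by Fmod, Dio2 and Hhip (6819 cells), showed the reverse for the microfibril pair Mfap4 and Fbn1. Mfap4 stood at 1545 against 470 CPM and Lox at 239 against 112 CPM, both called higher where 1.85% of genes were. Fbn1 stood at 205 against 573 CPM and was called lower where 2.47% were. Each held in 6 of 6 libraries, with Mfap4 at 1207 to 1978 CPM against 383 to 567 CPM. The cells compared with include the Pi16-Cd248 subset, which had Fbn1 at 1549 CPM and Mfap4 at 101 CPM. In the C7-Penk-Cxcl14 subset Fbn1 stood at 354 CPM. The fibroblast-like comparisons therefore share cells and are not separate evidence. The 2 sub-clusters of the Fmod-Dio2-Hhip subset differed for Lox, which stood at 319 CPM in sub-cluster 0 (3920 cells) and at 131 CPM in sub-cluster 2 (2899 cells), below the 184 CPM of the rest of the class. Mfap4 stood at 1816 and 1178 CPM in them. The calls for Mfap4 and Lox changed with the cell filter and the clustering. With at least 200 detected genes, their log2 ratios were -0.17 and -0.89, at a clustering resolution of 1.0 they were -0.23 and -0.93, and with doublets kept the Lox ratio was -0.43. In the C7-Penk-Cxcl14 subset (2892 cells), Mfap4 was at 379 against 1157 CPM. It was the 1 gene called lower, where 2.19% of genes were, and 0 were called higher, where 1.79% were. C7, Penk and Cxcl14 were highest in this subset, but Smoc2 and Hsd11b1, also on its naming list, were not. They stood at 514 and 183 CPM in it, against 1483 and 257 CPM in Fmod-Dio2-Hhip cells. Sub-cluster 9 (91 cells, led by Spp1 and Apod) was lower for 8 of 10 genes, all but Fbn1 and Efemp2, where 10.9% of genes were. Fbln1 was at 51.0 CPM and Eln at 75.2 CPM there. Sub-cluster 5 (873 cells) carried smooth muscle markers at 15188 CPM, and Eln, at 823 CPM, was the 1 gene called higher in it (background 2.97%).

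Among endothelial cell-like cells, elastin was highest in those with markers of large arteries. Large artery-like cells (2403 cells, rich in Clu and Cytl1) had Eln at 1671, 1489, 1134, 1720, 1496 and 1204 CPM in libraries 1 to 6, against 292, 339, 258, 301, 409 and 245 CPM in the other endothelial cell-like cells, 4.85 times higher in the sums. These values overlapped with the 1468 to 1722 CPM of smooth muscle-like cells. Fbln5 stood at 714, 885, 825, 966, 782 and 1015 CPM, against 214 to 335 CPM in the other endothelial cell-like cells, and lay above the 388 to 462 CPM of smooth muscle-like cells in every library. Mfap5 (332 against 37.0 CPM), Lox (209 against 30.1 CPM) and Emilin1 (123 against 54.2 CPM) were higher by 8.96, 6.94 and 2.28 times. These 5 of 10 genes were called higher where 7.31% of 9375 genes were, and 0 were called lower where 9.55% were.

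The other 5 genes were not part of this pattern. Fbln1 (19.1 against 22.4 CPM), Efemp2 (18.6 against 16.1 CPM), Mfap4 (23.1 against 32.0 CPM) and Loxl1 (15.5 against 17.0 CPM) stayed at the low endothelial level. Fbn1 was at 29.9 against 59.3 CPM, just short of 2-fold lower. Large artery-like cells had smooth muscle markers at 1986 CPM, below the 2224 CPM of capillary-like cells, and 752 Eln UMIs per 1000 of these marker UMIs (libraries 579 to 1089), against 67.0 in capillary-like cells (44.4 to 109) and 34.7 in smooth muscle-like cells. Fibroblast markers were at 798 CPM in large artery-like and 429 CPM in capillary-like cells. Sub-cluster 4, led by Adh7 and Gkn3, held the highest Eln of any endothelial sub-cluster, at 2059 CPM, with Fbln5 at 1071 CPM, and 3 genes were called higher there where 3.59% of genes were. Sub-cluster 6, led by Alpl and Dkk2 and outside the named subsets, had Fbln5 at 1090 CPM, the 1 gene called higher (background 3.27%), with Eln at 655 CPM and Mfap5 at 49.7 CPM. In it 2 of the 10 genes were called lower, where 6.24% of genes were.

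Capillary-like cells (3016 cells) were lower for Eln (149 against 918 CPM), Lox (10.6 against 120 CPM), Mfap5 (34.4 against 174 CPM), Fbln5 (163 against 587 CPM) and Fbn1 (23.7 against 60.0 CPM), 5 genes where 10.2% of genes were, and 0 were higher where 7.90% were. Their median depth was 3156 UMIs, against 5111 in large artery-like cells. Venous-like cells (788 cells) had the highest Fbn1 of the endothelial subsets, at 121 against 40.1 CPM, with libraries between 88.4 and 174 CPM against 31.5 to 56.1 CPM, and it was the 1 gene called higher, where 2.89% of genes were. Eln, Fbln5, Mfap5 and Lox were lower in them, 4 genes where 5.81% were. Of the genes that named this subset, Ackr1, Selp and Sele were highest in it, at 359, 1152 and 108 CPM. Vwf and Nr2f2, at 1133 and 367 CPM, were not. They stood at 1607 and 391 CPM in endothelial cell-like cells outside the named subsets. Because each subset is part of what the others are compared with, these endothelial comparisons share cells and are not separate evidence.

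**Figure D5:**
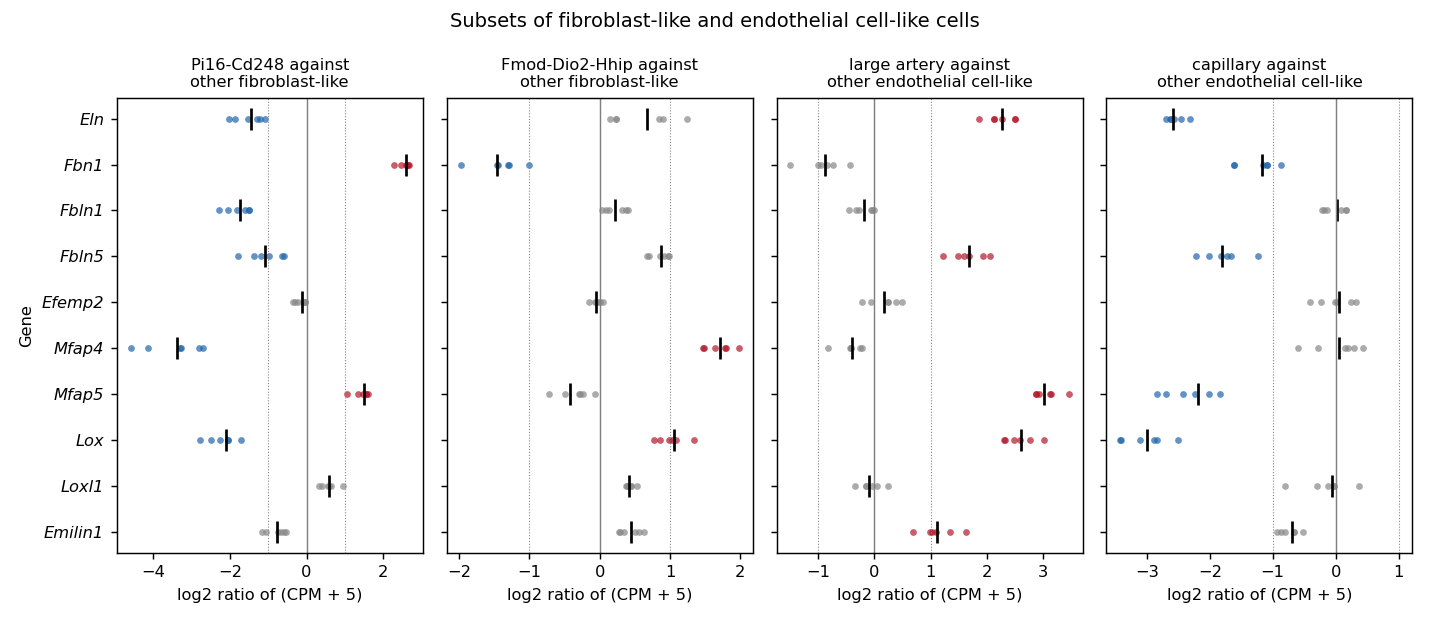
Log2 ratio of (CPM + 5) of each gene between a subset and the other cells of its class, in each library (points) and in the sum of libraries (vertical marks). Red genes were called higher, blue lower and grey neither, and dotted lines are 2-fold. Fbn1 and Mfap5 are higher in Pi16-Cd248 cells, and Eln, Fbln5, Mfap5, Lox and Emilin1 are higher in large artery-like cells.

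The highest library was at least 2 times the lowest for 1 of 10 genes in smooth muscle-like cells, where 6.88% of 10853 genes did, for 0 in fibroblast-like cells, where 4.78% did, and for 1 in endothelial cell-like cells, where 4.28% did. In both cases the gene was Fbln1, with ratios of 2.93 and 2.36. On the log2 scale, the median ratio of highest over lowest library was 0.42 for the 10 genes and 0.41 for all genes in smooth muscle-like cells, 0.41 and 0.43 in fibroblast-like cells, and 0.71 and 0.45 in endothelial cell-like cells. There Fbn1, Fbln1, Mfap4, Mfap5 and Loxl1 varied 1.76-fold to 2.36-fold. Eln varied 1.17-fold in smooth muscle-like cells, Efemp2 1.10-fold and Fbln5 1.19-fold, and Mfap5 varied 1.76-fold with library 1 highest. In smooth muscle-like cells Fbln1 was lowest in libraries 3 and 6, at 11.9 and 10.9 CPM, which also had the lowest fibroblast markers, at 533 and 603 CPM against 747 to 849 CPM in the others. Its ratio per 1000 fibroblast marker UMIs was 22.4 and 18.2 there and 29.6 to 43.0 in the others. Libraries 1 and 2, highest for Fbln1, also held most of sub-cluster 5. The part of either in the spread was not tested. Without library 6, the endothelial count was 0.

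The partners of the set were counted from 5 lists of 50 genes, and those compared reached 10 CPM in smooth muscle-like or fibroblast-like cells. Among 6 integrins that bind fibulins and fibrillin, 4 were higher in smooth muscle-like cells and 0 lower. The alpha 8 subunit gene Itga8 stood at 1520 against 72.0 CPM and the beta 3 subunit gene Itgb3 at 70.1 against 13.6 CPM. Enzymes that degrade elastin were lower in smooth muscle-like cells for 4 of 4 genes tested, with the gelatinase gene Mmp2 at 20.4 against 467 CPM and the cathepsin gene Ctsk at 8.23 against 170 CPM. Cross-linking relatives and helpers were lower for 4 of 7 and higher for 0. Pcolce, an enhancer of procollagen processing, stood at 46.9 against 1026 CPM, and Bmp1, the protease that processes procollagen and pro-lysyl oxidase, at 41.3 against 201 CPM. Of 13 microfibril and fibulin relatives, 1 was higher (Ltbp1, which anchors latent TGF-beta, at 601 against 215 CPM) and 5 were lower, with Fbln2 at 13.0 against 389 CPM and Emilin2 at 1.56 against 103 CPM. Of 6 ADAMTS and ADAMTS-like genes that act on microfibrils, 1 was higher (Thsd4, at 207 against 11.6 CPM) and 3 lower, with Adamtsl2 at 1.78 against 66.2 CPM and Adamtsl4 at 13.8 against 49.3 CPM. The background for these counts is that of all genes in the same comparison, 10.8% higher and 15.8% lower.

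In the subsets these relatives were counted in the same way. Pln-high cells were lower for 6 of 13 microfibril and fibulin relatives (background 3.47%) and higher for 0 (5.63%). Thbd-Ltbp2-high cells were higher for 4 of 12 (4.78%) and lower for 0 (1.65%), a list that contains Ltbp2, which helped to name the subset. Pi16-Cd248 cells were higher for 5 of 14 (4.30%) and lower for 1 (5.69%). Fmod-Dio2-Hhip cells were higher for 2 of 13 (1.85%) and lower for 4 (2.47%), and C7-Penk-Cxcl14 cells were higher for 0 of 13 (1.79%) and lower for 2 (2.19%). Large artery-like cells were higher for 5 of 11 (7.31%) and lower for 1 (9.55%), capillary-like cells were higher for 0 of 11 (7.90%) and lower for 8 (10.2%), and venous-like cells were higher for 1 of 12 (2.89%) and lower for 3 (5.81%).

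Across 52 sums of a class in a library (9 classes, at least 20 cells each), the genes with the most similar profile of log2(CPM + 5) to each member were found by Pearson correlation among 6715 genes. The sums share libraries and free RNA, so these values are descriptions. Eln was most like Mfge8 (r = 0.90), the gene of lactadherin, whose fragment medin deposits in aging arteries, and Fam13c (0.90). Fbln1 was most like Smoc2 (0.93) and Gfpt2 (0.93), Fbn1 like Fkbp7 (0.90) and Calu (0.89), and the Fbln5 profile was similar to that of Cd200 (0.90). Efemp2 was most like C1qtnf2 (0.93) and Arhgef25 (0.92), Mfap4 like Itgbl1 (0.92) and Htra3 (0.92), and Mfap5 like Meg3 (0.93) and Pdlim2 (0.91). Lox was most like Bgn (0.88), the gene of the matrix proteoglycan biglycan, and Reck (0.85), Loxl1 like Mmp23 (0.92) and Fzd2 (0.92), and Emilin1 like Ebf1 (0.89) and Ttc28 (0.88). Within the set the closest pairs were Mfap4 with Loxl1 (0.85), Fbn1 with Efemp2 (0.85) and Fbln5 with Lox (0.83), and the least alike was Eln with Fbln1 (-0.10).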

How the data were processed

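The deposited file is a single sparse matrix of raw UMI counts, written by cellranger-6.1.2 per the file headers. The submitters' processing notes name the build GRCm38, bcl2fastq 5.01, Seurat 3.1.1 and an earlier Cell Ranger, 3.1.0. For each class in each library, the deposited counts were added up and scaled to 1e+06 UMIs (CPM). Barcodes needed at least 500 genes and at most 20% mitochondrial counts, and Scrublet doublets (3.24% to 12.1% per library) were removed. Cells were clustered with scanpy 1.11.5 and leidenalg 0.10.2 (2000 variable genes chosen within libraries, without mitochondrial, ribosomal, member or partner genes, 30 components, 20 neighbours, resolution 0.5), without batch integration. The 22 clusters were named from 25 marker lists, which required at least 3 markers and a margin of 0.3 log2 units over the next list. The choice to sub-cluster the 3 large classes by the same settings was made after the first clusters were seen. Total UMIs per library lay between 51813179 and 96144873; intervals are exact and cover counting error only.

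The members and lists were chosen with earlier results of these data known. All 55450 gene identifiers matched GENCODE M21 on GRCm38, from which coordinates were taken. Windows from the RefSeq promoter table were used for 5 of the 10 members. Named partner genes are the 2 largest ratios in each direction per list, in smooth muscle-like against fibroblast-like cells, and likeness names the 2 genes of highest correlation among those reaching 50 CPM in a class; 1 of these genes is not reported here. The genotype fit planned with edgeR was not made, because no cell could be tied to a sample. The size rule was tested on simulated counts of smooth muscle-like against fibroblast-like cells for 8794 genes. It called 50 of 50 genes changed 3-fold, 0 of 50 changed 1.5-fold and 0 of 8594 unchanged genes, with no free RNA simulated.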

Additional observations from a re-analysis of the deposited data

Results flagged for a closer look

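Fbn1 in endothelial cell-like cells stood at 75.4 CPM in library 6, apart from the other 5 libraries, which lay between 40.9 and 50.7 CPM. The gap to the nearest library was 0.717 of the whole range, above the 95% critical value of 0.625 for 6 values. A total of 30 gene and class groups were examined in this way, and chance alone marks about 1 in 20. In the same library, Fbn1 was also highest in venous-like cells, which are part of this class, at 174 CPM against 88.4 to 133 CPM elsewhere. Library 6 was highest for Fbn1 in smooth muscle-like cells too, at 175 CPM against 132 to 153 CPM. In fibroblast-like cells library 4 was highest, at 501 CPM.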

How the results depend on the processing

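No paired analysis was possible because the barcodes carry no sample name, so replicate numbers cannot be tied to libraries. For the same reason the planned edgeR, DESeq2, replicate block and replicate-removal fits of genotype were not run. Over cell filters, clustering, weighting, floors, gating by marker UMIs and removal of each library, 227 of 239 counts of called genes stayed within 1.5 times their main value. Of the values of single genes, 1571 moved by less than 1 SD over libraries, 144 moved further and 5 changed sign. The number called higher in fibroblast-like subsets was 2 in place of 4 with at most 10% mitochondrial counts, with at least 200 genes, with doublets kept, at resolution 1.0 and with a 3-fold rule. With doublets kept, 25 in place of 9 calls were lower in endothelial cell-like subsets, and the cause was not tested. A 3-fold rule gave 4 in place of 7 lower in fibroblast-like subsets, 2 in place of 4 lower in Pln-high cells, 3 in place of 5 higher in smooth muscle-like against endothelial cell-like cells, and 2 in place of 4 lower in smooth muscle-like against fibroblast-like cells. Fewer genes can pass a stricter rule. The endothelial spread count was 0 in place of 1 by the mean of each cell's CPM, and ranged from 0 (without library 6) to 1 with single libraries removed. In Fmod-Dio2-Hhip cells, the Mfap4 log2 ratio was 1.71 and became -0.17 with at least 200 genes and -0.23 at resolution 1.0. The Lox ratio there was 1.06 and became -0.89, -0.93 and, with doublets kept, -0.43. The cause was not tested. Leaving out 3 sub-clusters with markers of another class (643, 873 and 144 cells), chosen after seeing the data, changed no count by more than 1.5 times. At 3000 UMIs per cell, Fbln1, Efemp2, Mfap4 and Loxl1 in endothelial cell-like cells were not detectable above their shares in T cell-like cells. Those T cell-like cells carried more fibroblast markers, at 2424 against 654 CPM, and 570 of the 925 came from 1 library. Their shares are therefore not a matched floor for these genes.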
